A study of Mus musculus with 8 samples.

Results

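The mouse esophagus keeps a stratified squamous epithelium whose upper cells cornify, and 69 genes of the cornified envelope and of the S100 and transglutaminase families were followed here. They were chosen by name from the deposited gene table as the small proline-rich proteins (SPRR, 16 genes), the late cornified envelope genes (LCE, 21), the S100A calcium-binding proteins (S100, 13), the transglutaminases (TGM, 7) and 12 other envelope precursors, filaggrin-type proteins and plakins. All 69 are called envelope genes below, although some, such as Tgm2, Tgm4 and S100a1, are better known from other cells. Of the 69 genes, 64 had a count in at least 1 library, against 22721 of the 32849 gene symbols in the whole table. The libraries were made from poly(A)-selected RNA of frozen esophagus tissue of healthy mice, 4 MGL KO and 4 WT, and the comparison asks how the esophageal transcriptome differs without the enzyme. MGL, monoacylglycerol lipase, is encoded by Mgll and degrades the endocannabinoid 2-arachidonoylglycerol, and the MGL KO mice carry a global deletion and were bred in-house together with WT littermates. The labels name no treatment, and the study's methods give both sexes and an age range for its mice in general, while the strain, and the sex and age of each sequenced mouse, are not given in the sources used here. RNA of the Y-linked genes Ddx3y, Eif2s3y, Kdm5d and Uty was present in every library, so each held male tissue. Whether every library came from a separate mouse is not spelled out in the labels, so p-values measure the spread between these libraries.

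As a keratinocyte leaves the basal layer and moves toward the lumen, it replaces its plasma membrane with a cornified envelope, a sheet of proteins laid down beneath the membrane and joined by isopeptide bonds. Plakins such as envoplakin and periplakin form its scaffold, transglutaminases place the bonds between glutamine and lysine residues, and loricrin, small proline-rich proteins and late cornified envelope proteins are the material that is cross-linked. S100 proteins bind calcium, and several of them are expressed in squamous epithelium, while others mark leukocytes or muscle. Most genes of these families lie side by side in the epidermal differentiation complex.

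On GRCm39, 59 of the 69 genes lay on chromosome 3 between 90416091 and 93474510, a stretch of 3.06 Mb. The 16 SPRR genes occupied 0.285 Mb and the 21 LCE genes 0.399 Mb of it, and 11 S100 genes shared 0.187 Mb at the proximal end, whereas S100a11 (chr3:93414382-93435293) and S100a10 (chr3:93462213-93474510) lay at the distal end. Outside the complex were Tgm1 on chromosome 14, Tgm4 on chromosome 9, the other 5 transglutaminase genes on chromosome 2, Evpl on chromosome 11, Ppl on chromosome 16 and Cnfn on chromosome 7. The 250 bases before the annotated start differed between the families, and promoters of genes from 4 of the groups are printed to show this. They are read 5′ to 3′ along the strand of the gene from GRCm39 with starts of GENCODE release M39, and capitals mark matches to the letters TATAAA, to the AP-1 letters TGANTCA or to the G-rich letters GGGNGGG on either strand, which do not overlap each other here.
Lor (chr3:91990450-91990699, minus strand): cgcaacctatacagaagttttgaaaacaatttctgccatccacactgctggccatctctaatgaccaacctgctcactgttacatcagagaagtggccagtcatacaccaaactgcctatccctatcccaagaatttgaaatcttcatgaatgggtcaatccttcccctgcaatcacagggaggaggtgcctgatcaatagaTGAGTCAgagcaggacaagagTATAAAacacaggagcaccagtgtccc
Sprr1a (chr3:92393209-92393458, minus strand): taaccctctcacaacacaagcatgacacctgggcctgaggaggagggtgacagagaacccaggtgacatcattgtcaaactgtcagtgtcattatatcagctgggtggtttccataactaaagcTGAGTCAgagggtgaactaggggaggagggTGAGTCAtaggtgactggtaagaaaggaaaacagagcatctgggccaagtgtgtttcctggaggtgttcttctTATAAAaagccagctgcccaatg
Sprr3 (chr3:92366032-92366281, minus strand): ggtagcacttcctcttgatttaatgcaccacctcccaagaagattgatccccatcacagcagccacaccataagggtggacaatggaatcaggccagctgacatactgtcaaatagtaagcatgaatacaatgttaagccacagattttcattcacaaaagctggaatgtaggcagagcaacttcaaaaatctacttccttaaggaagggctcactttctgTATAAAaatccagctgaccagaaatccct
Tgm3 (chr2:129854007-129854256, plus strand): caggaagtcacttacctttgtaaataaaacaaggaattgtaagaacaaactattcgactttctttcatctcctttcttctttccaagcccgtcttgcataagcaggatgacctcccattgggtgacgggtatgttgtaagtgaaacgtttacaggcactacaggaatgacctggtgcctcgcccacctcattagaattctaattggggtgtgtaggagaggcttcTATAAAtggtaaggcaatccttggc
S100a6 (chr3:90519890-90520139, plus strand): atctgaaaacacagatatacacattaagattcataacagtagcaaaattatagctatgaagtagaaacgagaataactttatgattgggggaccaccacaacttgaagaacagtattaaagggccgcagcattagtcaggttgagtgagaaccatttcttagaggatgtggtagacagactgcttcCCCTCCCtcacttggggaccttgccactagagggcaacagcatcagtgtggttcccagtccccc

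A TATAAA stretch, the core of many cell type-specific promoters, stood 27 bases before the start of Lor, 23 before that of Sprr1a, 29 before that of Sprr3 and 25 before that of Tgm3. These letters were found within 250 bases in 12 of 16 SPRR genes 7 of 12 other precursors, 4 of 21 LCE, 2 of 7 transglutaminase and 1 of 13 S100 genes, against 11.9% of 21751 protein-coding promoters of the same length. TGANTCA, the letters that AP-1 factors bind, was found in 11 of 16 SPRR and 6 of 12 other precursor promoters, in 1 of 13 S100 promoters and in 0 of 21 LCE and 0 of 7 transglutaminase promoters, against 6.17% of all. The G-rich letters GGGNGGG, a wider pattern than the GC box, were found in 16 of the 69 promoters (23.2%) and in 47.2% of all. The S100a6 promoter held them on the opposite strand as GGGAGGG, which is not a GC box. These matches are descriptions of the letters in this window and do not show that a factor is bound.

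The coding sequences carried the composition their families are known for. Glycine codons made up 55.3% of the 486 codons of Lor, and proline codons made up 31.9% of Sprr1a, 30.7% of Sprr1b and 20.6% of Sprr3. Cysteine codons reached 21.1% in Lce1c and 16.3% in Lce3b, and glutamine codons, whose residues transglutaminases use, reached 20.1% in Rptn and 26.7% in Ivl. Neighbouring copies are so alike that reads cannot always be assigned, and the first 120 coding bases of 3 Sprr2 copies are printed for that reason, with a capital at the position where Sprr2a3 departs from Sprr2a1 and Sprr2a2.
Sprr2a1: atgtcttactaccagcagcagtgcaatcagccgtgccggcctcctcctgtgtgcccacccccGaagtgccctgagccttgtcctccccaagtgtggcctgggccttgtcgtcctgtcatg
Sprr2a2: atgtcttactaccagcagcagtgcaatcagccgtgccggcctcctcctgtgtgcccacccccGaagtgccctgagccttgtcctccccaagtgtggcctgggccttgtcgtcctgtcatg
Sprr2a3: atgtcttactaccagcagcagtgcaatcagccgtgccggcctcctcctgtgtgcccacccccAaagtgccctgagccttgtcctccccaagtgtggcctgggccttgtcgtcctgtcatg

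Sprr2a1 and Sprr2a2 had the same 249 coding bases, and Sprr2a3 differed from them at 3 of these. Of all 100-base windows in their transcripts, 93.1% for Sprr2a1 and 90.6% for Sprr2a2 also occurred in another gene of the set. For Lce3e and Lce3f, 36.4% and 43.0% of the windows did so. S100a1 had 88.5% of its exon bases under exons of S100a13 on the opposite strand, Lce1b 85.3% under the long noncoding RNA Gm35639 and Tgm4 34.5% under Zdhhc3. The use of strand in counting is not given in the sources used here, so values of these genes are uncertain as to which neighbour they belong to.

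The deposited counts summed to between 13479069 and 17090152 per library, and all levels below are normalized CPM, the counts scaled to the library sizes after TMM correction. A gene without a count may still have had up to 3 by sampling, or 0.167 to 0.271 CPM in these libraries, a limit for counting error only. Mgll, the deleted gene, stood at 13.7 ± 1.54 CPM in MGL KO and 81.2 ± 9.97 CPM in WT (SD, n = 4 each), lower in every MGL KO library. A pair of MGL KO libraries stood apart. MGL KO library 2 was the shallowest and held the least of the 9 differentiated squamous epithelium markers, 2049.9 CPM in sum against 2841 to 13429.9 in the others, and the most of the 10 skeletal muscle markers, 87517 CPM against 37575 to 76059. MGL KO library 4 held 7295 CPM of the 5 airway secretory markers, which summed to 41.4 or less in every other library.

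None of the envelope genes passed the test for a difference between MGL KO and WT. Of the 64 genes with a count, 48 passed the filter on low counts, and 0 of these were called at an adjusted p under 0.05 by the quasi-likelihood test of edgeR, with the adjustment of Benjamini and Hochberg over all 14864 tested genes, where 7 genes (0.0471%) were called. The lowest adjusted p of an envelope gene was 0.649, for S100a10. At an unadjusted p under 0.05 there were also 0 of 48, against 1285 of all tested genes (8.65%), and in 0 of 48 did the 4 MGL KO libraries all lie on one side of the 4 WT libraries, against 6.02% of all. The exact test of edgeR called 0 of the 48, with 0 at an unadjusted p under 0.05, against 0.437% and 7.46% of all tested genes. DESeq2 called 0 and 0 as well, against 0.922% and 9.56%. Limma-voom with quality weights called 0, against 0.168%, with 3 at an unadjusted p under 0.05 (S100a10, S100a9 and Tgm4), against 11.4%. With marker levels as a covariate in the edgeR fit, 0 were called (of all tested genes, 0.0942% with basal squamous, 0.161% with skeletal muscle and 0.0538% with keratin markers), and those at an unadjusted p under 0.05 were 3 with basal squamous markers (Lce1a1, Ppl and Sprr2a2, against 11.6% of all), 3 with skeletal muscle markers (S100a10, S100a6 and S100a9, against 14.8%), and 6 with Krt4, Krt13 and Krt78 (Ppl, Rptn, S100a16, Sprr1b, Tgm1 and Tgm3, against 9.84%), the last chosen after the data were seen.

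The point estimates were unevenly spread over the families. In MGL KO, 34 of the 48 genes lay lower and 14 higher, against 47.0% of all tested genes lower, and their median log2 fold change was -0.49 against 0.02 over all tested genes. All 20 tested LCE genes were on the lower side with a median of -0.76, as were all 8 tested other precursors and plakins with a median of -0.48. SPRR genes had 4 of 6 on the higher side (median 0.24), S100 genes 7 of 9 (median 0.20) and transglutaminases 3 of 5 (median 0.23). Without MGL KO library 1, SPRR genes had 4 of 6 on the lower side (median -0.65) and transglutaminases 3 of 5 (median -0.079), without WT library 3 the SPRR median was -0.072 and the transglutaminase median 0.031, and without WT library 4 the SPRR median was 0.0063. Without MGL KO library 2 or WT library 2 the SPRR median was 0.41 and 0.83. The S100 median was between 0.10 and 0.24 without any 1 library. The median SE of these log2 fold changes was 0.67 for the envelope genes and 0.20 for all tested genes, so that changes of the size seen could not be separated from the spread between libraries. The median moved to -0.18 without MGL KO library 2, to -0.10 without WT library 2 and to -0.02 when at least 10 counts were required in every library, which left 23 of the genes. Of the 8 other precursors and plakins, 5 were on the lower side without MGL KO library 2 (median -0.11) and 5 without WT library 2 (median -0.07). A p above the threshold does not show that levels were equal.

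**Figure D1:**
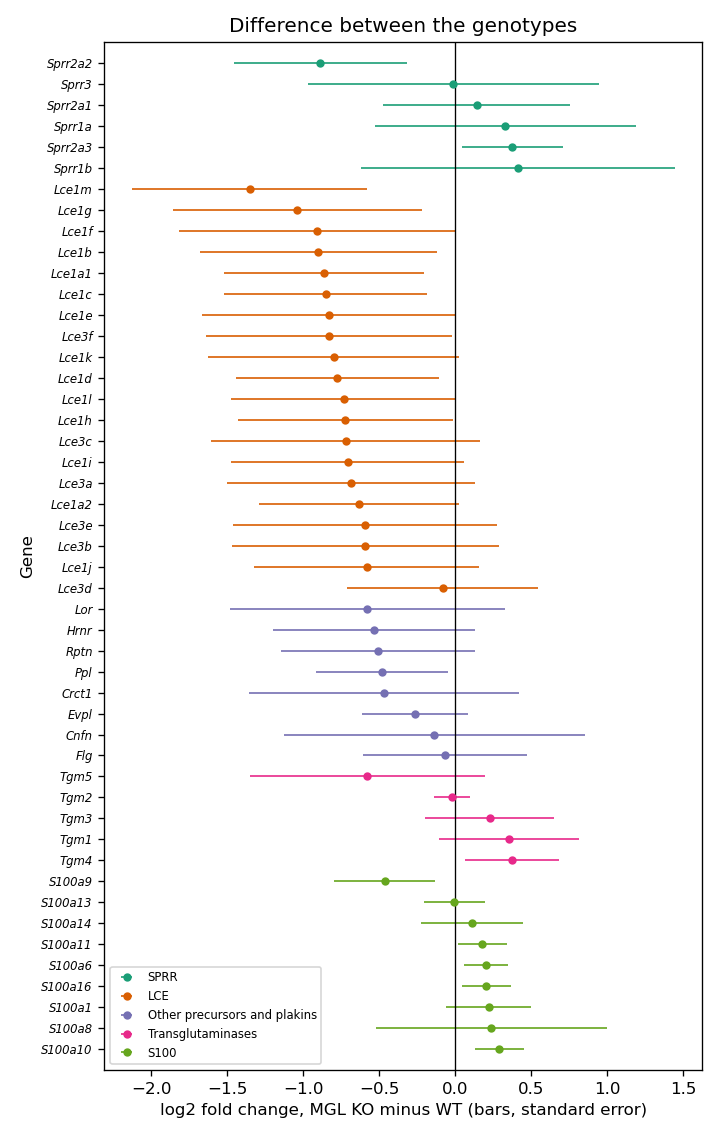
Log2 fold change of MGL KO over WT for each tested gene of the set, with bars of 1 SE from edgeR's quasi-likelihood fit, grouped by family. All 20 LCE genes lie left of 0, 7 of 9 S100 genes lie right of it, and none passed the test.

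The genes ranged widely from library to library. Over the 23 with at least 10 counts everywhere, the highest library exceeded the lowest by a median of 4.15-fold, against 1.75-fold for the 13394 genes of the whole table that met the same minimum, and 7 of the 23 (30.4%) but 2.08% of all such genes ranged over more than 10-fold. MGL KO library 2 was the lowest of the 8 in 33 of the 48 tested genes, against 29.4% of all tested genes, and it was lowest in 19 of 20 LCE genes and in all 8 other precursors and plakins. WT library 2 was the highest in 20 of the 48, against 7.51% of all tested genes. In bulk tissue, fewer cells of a type and less RNA per cell cannot be told apart. The 8 basal squamous markers also had their lowest sum in MGL KO library 2 (3608 CPM, against 3926 to 6369). Of these, 5 were lowest there, while Krt5, Trp63 and, by a small margin, Krt14 were lowest in WT library 3. The part of tissue makeup in these values was not tested.

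**Figure D2:**
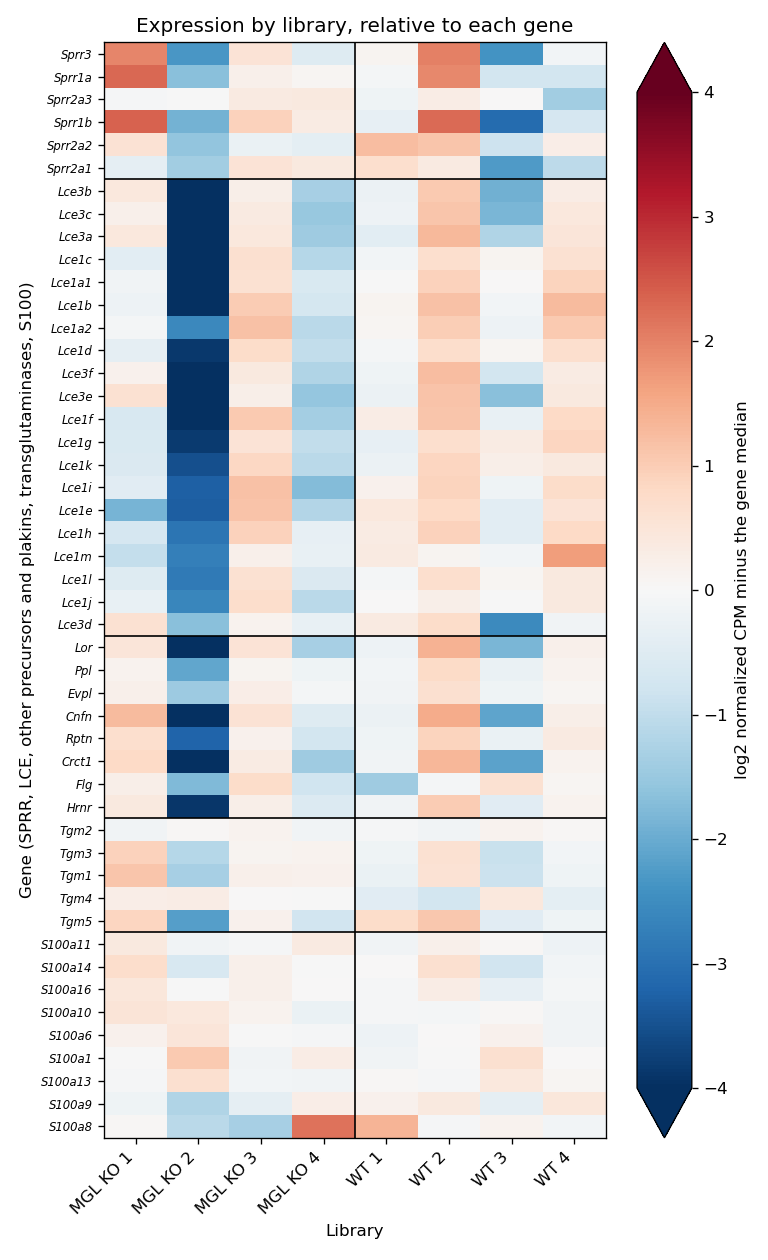
Log2 of each tested gene's level over its median across the 8 libraries, with libraries in columns and genes in rows grouped by family, values under 3 counts set to that floor and colors cut at 4 in either direction. MGL KO library 2 is the low column through the LCE genes (lowest in 19 of 20) and the other precursors (8 of 8), and WT library 2 is highest in 11 of 20 and 7 of 8 of them.

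Loricrin (listed as Lor, chr3:91987578-91990449), the glycine-rich bulk protein of the envelope, had the highest mean level of the set, 258 CPM per kb of exon, although in MGL KO library 2 and WT library 3 it was below Tgm2 per kb. MGL KO libraries 1 to 4 held 684, 27.4, 716 and 197 CPM, and WT libraries 1 to 4 held 427, 1297, 138 and 566 CPM. The lowest and the highest value, 47.3-fold apart, belonged to library 2 of either genotype, and the groups overlapped throughout (log2 fold change -0.58, SE 0.90, adjusted p = 0.857, edgeR). Cornifelin (Cnfn, chr7:25067040-25069156), another envelope component, was next per kb with 216 and ranged still wider. Its levels were 311, 4.69, 194 and 91.6 CPM in MGL KO and 110.2, 367, 30.4 and 153 CPM in WT, a 78.3-fold range that again ran from MGL KO library 2 to WT library 2 (log2 fold change -0.14, SE 0.99, adjusted p = 0.973, edgeR). Levels of Lor and Cnfn per kb overlapped over libraries. Below them by mean level came S100a14 (87.2 CPM per kb), Tgm3 (73.5), Tgm2 (71.9), S100a11 (65.2), Crct1 (57.3), S100a6 (55.4) and Sprr3 (41.3). Repetin (Rptn), a glutamine-rich fused-type S100 protein, was at 236, 15.97, 164 and 87.7 CPM in MGL KO and at 131, 273, 121 and 190.1 CPM in WT. Its lowest WT library, 121, lay above only MGL KO libraries 2 and 4, and the difference did not pass (log2 fold change -0.51, SE 0.64, adjusted p = 0.822, edgeR). The estimate was -1.002 without MGL KO library 1 and -0.14 without MGL KO library 2. Crct1, a small cysteine-rich gene of the complex, ran from 2.80 CPM in MGL KO library 2 to 113 in WT library 2.

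Envoplakin and periplakin, the plakins that dimerize to seed the envelope, varied less. Evpl (chromosome 11) had 265, 84.6, 277 and 215 CPM in MGL KO and 207, 355, 205 and 244 CPM in WT. Ppl (chromosome 16) had 279.7, 61.3, 274 and 226 CPM in MGL KO and 240.1, 439, 212 and 285 CPM in WT. For both genes the other 7 libraries lay within 205 to 439 CPM, and MGL KO library 2 lay below all of them. The Evpl to Ppl ratio stayed between 0.808 and 1.38, a 1.71-fold range, and its highest value was that of MGL KO library 2. Neither gene passed the test (Ppl log2 fold change -0.48, SE 0.43, adjusted p = 0.755, and Evpl log2 fold change -0.26, SE 0.35, adjusted p = 0.828, edgeR), and without MGL KO library 2 the estimates were 0.0003 for Evpl and -0.17 for Ppl.

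Flg, Flg2, Hrnr and Ivl, whose products are abundant in cornified skin, were scarce per kb, unlike Rptn (36.7 CPM per kb). Flg, the filament-aggregating protein of skin, held 33.9, 8.57, 48.2 and 16.6 CPM in MGL KO and 10.8, 27.2, 44.0 and 30.9 CPM in WT, which over its long transcript came to 1.46 CPM per kb. Hrnr lay between 0.722 and 21.2 CPM. Flg, Flg2 and Hrnr repeat parts of their own sequence, with 10315, 11997 and 4958 different 100-base windows over 18829, 20803 and 11187 exon bases. How reads from such repeats were counted is not given in the sources used here, so their levels per kb are uncertain. Ivl had 31 counts over all 8 libraries and at most 14 in 1 of them, Flg2 had 21 counts and Tchhl1 had 3, all in MGL KO library 2. Crnn, cornulin, a defining protein of esophageal squamous cells in several species, had 1 count in all 8 libraries under the symbol searched. Skin keratins were low as well, with Krt10 at 5.61 ± 0.587 CPM in MGL KO and 6.09 ± 0.601 CPM in WT, whereas the esophageal keratin Krt13 stood at 4201 ± 2384 CPM in MGL KO and 4465 ± 2538 CPM in WT (SD, n = 4 each).

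LCE genes, which encode small cysteine-rich or glycine-rich envelope proteins, ran from 2.11 (Lce1m) to 39.5 (Lce3b) CPM per kb among those with counts. Of the 21 genes, 20 had a count and all 20 passed the filter, and Lce6a had 0 counts in all 8 libraries. Lce3b (chr3:92840286-92841404) had 32.3, 0.632, 28.2 and 9.61 CPM in MGL KO and 20.7, 50.2, 6.31 and 29.9 CPM in WT. Lce3c followed with 19.1, 0.361, 21.5 and 5.79 CPM in MGL KO and 14.5, 36.0, 4.73 and 22.2 CPM in WT, a 99.8-fold range that rests on 4 counts in MGL KO library 2. For Lce3a the values were 16.2, 0.632, 16.1 and 4.50 CPM in MGL KO and 9.04, 29.7, 5.19 and 16.8 CPM in WT. In all 3 genes WT library 2 was highest, MGL KO library 2 lowest and WT library 3 the lowest of its group. Lce1c (chr3:92586554-92588225), the Lce1 gene with the highest mean CPM, though Lce1b was above it per kb, had 7.72, 0.632, 16.1 and 4.72 CPM in MGL KO and 9.54, 16.5, 11.3 and 15.7 CPM in WT, and here MGL KO library 3 was close to the top WT libraries. None passed (Lce1c log2 fold change -0.85, SE 0.67, adjusted p = 0.725, and Lce3b log2 fold change -0.59, SE 0.88, adjusted p = 0.848, edgeR). Leaving out 1 library put the estimate between -1.59 (without MGL KO library 3) and -0.48 (without MGL KO library 2) for Lce1c, and between -1.05 (without MGL KO library 1) and -0.095 (without WT library 2) for Lce3b.

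Summed over the family, LCE levels were 140.3, 5.96, 204 and 61.8 CPM in MGL KO and 127, 273, 88.6 and 209 CPM in WT, a mean of 103 ± 87.0 CPM in MGL KO and 174 ± 82.6 CPM in WT (SD, n = 4 each). Without MGL KO library 2 the MGL KO mean was 135 ± 71.2 (SD, n = 3), 19 of 20 genes were still on the lower side and their median log2 fold change was -0.37. Without WT library 2, 19 of 20 were on the lower side with a median of -0.57, and without MGL KO library 3 the median was -1.48 and 5 Lce1 genes reached an unadjusted p under 0.05 (9.62% of all tested genes did), but 0 were called. The 20 genes lie in 1 cluster and moved together across libraries, so their common side is not 20 separate observations. The Lce3 to Lce1 ratio of summed counts was not constant, running from 0.365 in WT library 3 to 1.81 in MGL KO library 1, and it was between 0.692 and 1.30 in the other 6 libraries.

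SPRR genes, whose proteins bridge other envelope proteins, had their highest mean level per kb in Sprr3. Sprr3 (chr3:92363809-92366031) had 125, 6.41, 47.4 and 22.6 CPM in MGL KO and 34.8, 133, 6.18 and 30.2 CPM in WT. Both groups spanned the same range, with MGL KO library 1 and WT library 2 high, MGL KO library 2 and WT library 3 low, and means of 50.4 ± 52.6 CPM in MGL KO and 51.0 ± 55.9 CPM in WT (log2 fold change -0.01, SE 0.96, adjusted p = 0.997, edgeR). Sprr1a (chr3:92390424-92393208) had 27.2, 1.71, 6.35 and 5.85 CPM in MGL KO and 5.19, 21.0, 3.29 and 3.32 CPM in WT. Sprr1b had 8.51, 0.451, 3.14 and 2.08 CPM in MGL KO and 1.34, 8.10, 0.197 and 1.04 CPM in WT. For both Sprr1 genes MGL KO library 1 and WT library 2 were the 2 highest, and the log2 fold changes were 0.33 with an SE of 0.86 for Sprr1a and 0.41 with an SE of 1.03, the largest of the set, for Sprr1b. Without MGL KO library 1 they turned to -0.81 and -0.48.

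The Sprr2 genes behaved differently in that their sum stayed between 3.91 and 11.5 CPM, a 2.93-fold range, while the SPRR sum as a whole ranged 11.1-fold. Sprr2a3 gave most of it, with 6.18, 6.23, 8.20 and 8.32 CPM in MGL KO and 5.63, 7.82, 6.44 and 2.41 CPM in WT. WT library 4 was the lowest, and MGL KO library 2, the lowest for 19 of 20 LCE genes, was in the middle (log2 fold change 0.37, SE 0.33, adjusted p = 0.754, edgeR). The estimate was 0.13 without WT library 4 and 0.58 without WT library 2. Sprr2a1 had 0.735, 0.361, 1.36 and 1.24 CPM in MGL KO and 1.51, 1.20, 0.197 and 0.456 CPM in WT. Sprr2a2 had 1.22, 0.18, 0.678 and 0.618 CPM in MGL KO and 1.90, 1.77, 0.46 and 0.978 CPM in WT. These near-identical copies had estimates on opposite sides of 0 (0.14 and -0.89), neither past the test, and reads of one cannot be told from reads of the other in most of their length. The remaining Sprr2 genes had 34 counts or fewer in all, and Sprr2b, Sprr2e and Sprr4 had 0 counts in every library.

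Transglutaminase 3 was the main epithelial cross-linking enzyme by level and transglutaminase 1 followed it. Tgm3 (chr2:129854257-129892319) had 547, 132, 313 and 322 CPM in MGL KO and 256, 442, 158 and 268 CPM in WT. Tgm1 (chr14:55937466-55951383) had 95.8, 17.8, 51.9 and 49.8 CPM in MGL KO and 36.9, 67.3, 24.5 and 40.1 CPM in WT. The order of the libraries was the same for both but for MGL KO libraries 3 and 4, which changed places, with MGL KO library 1 highest and MGL KO library 2 lowest. The ratio of Tgm3 to Tgm1 counts stayed between 5.71 and 7.42 over the libraries, a 1.30-fold range, although the genes lie on different chromosomes. Neither passed (Tgm3 log2 fold change 0.23, SE 0.42, adjusted p = 0.886, and Tgm1 log2 fold change 0.35, SE 0.46, adjusted p = 0.827, edgeR), and both estimates fell just below 0 without MGL KO library 1. Tgm2, the widely expressed tissue transglutaminase, which is not an epithelial differentiation gene, had 314, 355, 383 and 312 CPM in MGL KO and 334, 315, 377 and 359 CPM in WT. These values were within 1.23-fold of each other in all 8 libraries, the narrowest range of the set, and the difference was -0.02 on the log2 scale with an SE of 0.12. Per kb of exon, the levels of Tgm3 and Tgm2 overlapped over libraries. Tgm4, known from the prostate, was at 1.84, 1.90, 1.54 and 1.52 CPM in MGL KO and 1.12, 0.913, 2.04 and 1.17 CPM in WT (log2 fold change 0.37, SE 0.31, adjusted p = 0.737, edgeR). Without WT library 3 the estimate was 0.67 with an unadjusted p under 0.05, against 7.79% of all tested genes, and without WT library 2 it was 0.23. Tgm5 was at 0 to 2.63, and Tgm6 had 0 counts. Tgm7 did not pass the filter and was not tested. It had 0.306, 0.271, 0 and 0.281 CPM in MGL KO and 0.335, 0.457, 0.329 and 0.326 CPM in WT, at 0 to 8 counts a library. These CPM ranges did not overlap, against 6.02% of all tested genes, but libraries of both groups held 5 counts.

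Relative to Krt13, the main keratin of the differentiated layers, Tgm3 ranged less than Lor, Cnfn and Sprr3, the only other genes of the set compared with it. The Tgm3 to Krt13 ratio of counts lay between 0.0554 and 0.0901, a 1.62-fold range, while Krt13 itself ranged 5.45-fold from 1464 CPM in MGL KO library 2 to 7973 in WT library 2. The Lor to Krt13 ratio ranged 8.68-fold, from 0.0187 in MGL KO library 2 to 0.163 in WT library 2, and the Cnfn to Krt13 ratio ranged 14.4-fold between the same 2 libraries. The Sprr3 to Krt13 ratio ranged 5.38-fold, from 0.00322 in WT library 3 to 0.0173 in MGL KO library 1. For each of these ratios the MGL KO and WT libraries overlapped. Relative to Krt13, Lor and Cnfn were thus at their lowest in MGL KO library 2. Tgm3 was at its highest there, at 0.0901, but MGL KO library 4 was nearly level with it, at 0.0896.

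**Figure D3:**
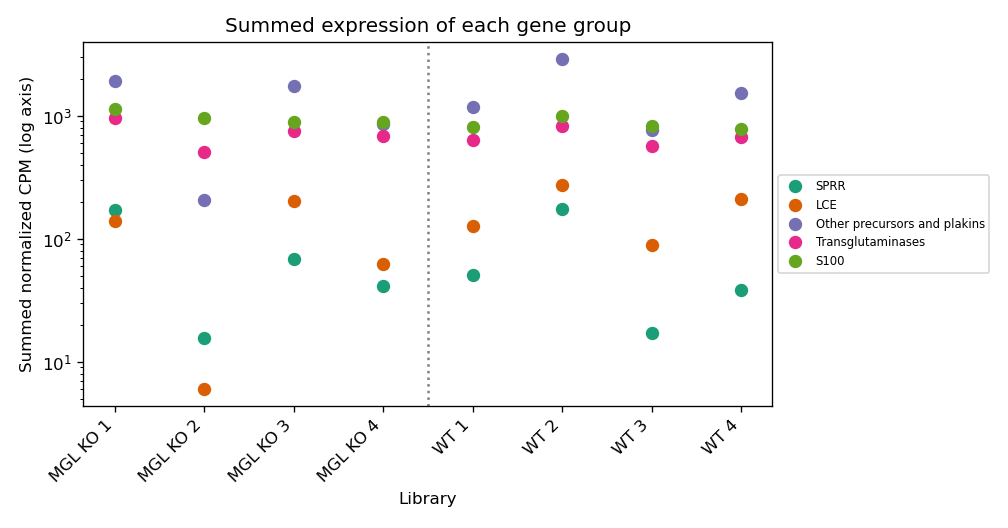
Summed normalized CPM of each gene family (log axis) in the 4 MGL KO and 4 WT libraries, 1 point per family and library. S100 sums stay between 779 and 1135 CPM and transglutaminase sums between 507 and 961, while LCE sums run from 5.96 in MGL KO library 2 to 273 in WT library 2.

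S100 genes were the steadiest family, with a sum of 779 to 1135 CPM. S100a14 and S100a16, neighbours expressed in squamous epithelium, differed in how they varied. S100a14 had 261, 102, 183 and 157 CPM in MGL KO and 162, 249, 93.4 and 148 CPM in WT, with MGL KO library 2 and WT library 3 lowest, as for Krt4 and Krt13. S100a16 had 212, 153, 178 and 154 CPM in MGL KO and 148, 189, 123 and 145 CPM in WT. It ranged 1.72-fold against 2.79-fold for S100a14, and the groups overlapped for both.

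S100a10 and S100a11, which bind annexins at the membrane and are widely expressed, lay at the far end of the complex. S100a10 had 211, 201, 165 and 124 CPM in MGL KO and 144, 141, 154 and 135 CPM in WT. Libraries 1 to 3 of MGL KO lay above all 4 WT libraries and library 4 lay below them (log2 fold change 0.29, SE 0.16, adjusted p = 0.649, edgeR), and without MGL KO library 4 the log2 fold change was 0.42 with an unadjusted p under 0.05, as for 9.36% of all tested genes, which did not pass adjustment. Its partner Anxa2 was at 475 ± 47.3 CPM in MGL KO and 353 ± 50.2 CPM in WT (SD, n = 4 each), a difference of 0.43 on the log2 scale that did not pass either (adjusted p = 0.503, edgeR). The Anxa2 groups did not overlap (410 to 514 CPM in MGL KO and 297 to 399 CPM in WT), against 6.02% of all tested genes. S100a11 had 217, 149, 159 and 215 CPM in MGL KO and 150.1, 189, 173 and 143 CPM in WT (log2 fold change 0.18, SE 0.16, adjusted p = 0.755, edgeR), with estimates of 0.095 without MGL KO library 1 and 0.27 without MGL KO library 2. S100a6, calcyclin, common in stromal and epithelial cells, had 141, 173, 123 and 121 CPM in MGL KO and 108, 125, 139 and 112 CPM in WT. In contrast to the envelope precursors it was highest in MGL KO library 2. S100a1, the S100 protein of striated muscle, was also highest there, at 146 CPM, and second highest in WT library 3, at 111, the same libraries that held the most skeletal muscle marker RNA.

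S100a8 and S100a9, the calprotectin subunits of neutrophils and of stressed keratinocytes, were low. S100a8 had 0.796, 0.361, 0.308 and 3.48 CPM in MGL KO and 1.95, 0.742, 0.855 and 0.717 CPM in WT, the top values coming from MGL KO library 4 and WT library 1. S100a9 had 3.12, 1.53, 2.71 and 4.27 CPM in MGL KO and 3.96, 4.62, 2.76 and 4.82 CPM in WT. The S100a9 to S100a8 ratio of counts ran from 1.23 in MGL KO library 4 to 8.80 in MGL KO library 3, so that the subunits did not keep a constant proportion at this depth. The 8 neutrophil markers summed to between 3.70 and 18.9 CPM, also highest in WT library 1 and MGL KO library 4. Most of these high sums was Csf3r, at 14.7 CPM in WT library 1 and 9.67 in MGL KO library 4. Cxcr2 was highest in the same libraries, at 2.01 and 2.53 CPM, whereas Camp was highest in MGL KO library 2, at 2.89 CPM. Ly6g was at 0 counts in 7 of the 8 libraries, and 4 macrophage markers (Adgre1, Cd68, Csf1r and C1qa) summed to 319 CPM in WT library 1, against 82.3 to 180.2 in the others. All 4 had an unadjusted p under 0.05 on the lower side in MGL KO, against 8.65% of all tested genes in either direction, and 0 were called by edgeR. The part of leukocytes in the S100a8 and S100a9 values was not tested. S100a2, S100a3, S100a4 and S100a5 had at most 9 counts in any library. For S100a4, which fibroblasts and leukocytes usually express, 33.3% of the exon bases are also annotated to Gm42674 on the same strand, which was not analysed here.

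**Figure D4:**
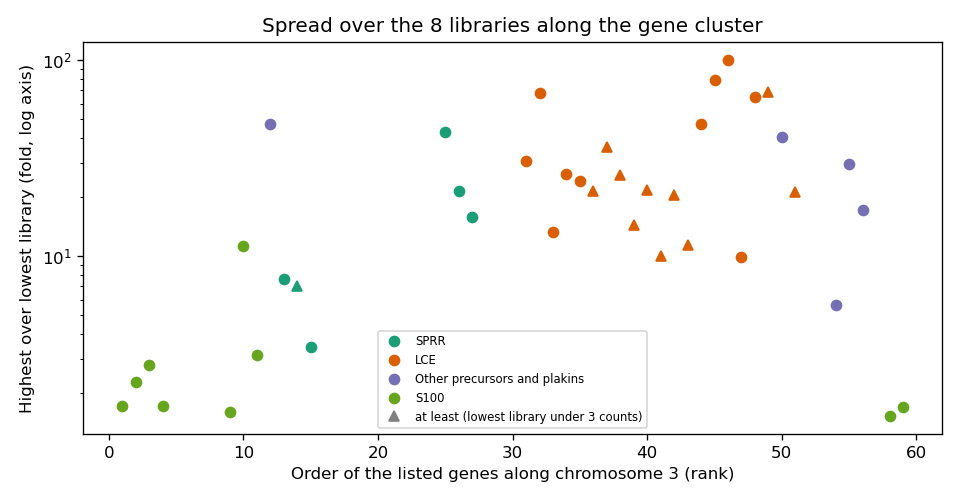
Highest over lowest level across the 8 libraries (fold, log axis) for the tested genes on chromosome 3, in their order along the chromosome, colored by family, with triangles for lower bounds where the lowest library had under 3 counts. S100 genes at both ends of the complex mostly lie below 3-fold, and LCE genes in its middle lie at 9.84-fold (Lce3d) or more, 10 of the 20 as lower bounds.

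Genes of the same program outside the named families were not called either. Of 31 other barrier genes (desmosome proteins, lipid-barrier enzymes and secreted differentiation products), 0 were called by edgeR, 0 reached an unadjusted p under 0.05, 23 lay lower in MGL KO with a median log2 fold change of -0.19, and 24 were lowest in MGL KO library 2. Over all tested genes, 0.0471% were called, 8.65% reached an unadjusted p under 0.05, 47.0% lay lower in MGL KO and 29.4% were lowest in MGL KO library 2. Krtdap, the keratinocyte differentiation-associated protein, was at 269 ± 218 CPM in MGL KO and 287 ± 210.2 CPM in WT and Dsp, desmoplakin, at 278 ± 129 CPM in MGL KO and 303 ± 101 CPM in WT. Of 22 regulators of epidermal differentiation, 21 were tested, 0 were called and 3 (Elf3, Maff and Cebpb) reached an unadjusted p under 0.05, against 8.65% of all tested genes. Elf3, an epithelial factor, was at 51.1 CPM in MGL KO library 4, which held the airway marker RNA, and between 5.46 and 11.4 CPM in the other libraries. Klf4, a factor of the suprabasal layers, was at 165 ± 50.6 CPM in MGL KO and 129 ± 33.1 CPM in WT. Of 6 annexin partners and receptors of S100 proteins, 0 were called and 1, Anxa2, reached an unadjusted p under 0.05, again against 8.65% of all. Of 8 further genes of the complex, 5 were tested and 0 were called or reached an unadjusted p under 0.05, against the same 0.0471% and 8.65%.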

How the data were processed

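RNA of 4 MGL KO and 4 WT esophagi was poly(A)-selected and sequenced, and the study's methods name GENEWIZ (Azenta Life Sciences) for this. Per the submitters' processing notes, reads were checked with FastQC 0.11.9, trimmed with cutadapt and aligned to GRCm39 with STAR 2.7.10b. The authors deposited unnormalized gene counts. The counting tool, its annotation and its use of strand were not given in the sources used here. Groups were taken from the genotype label. The 69 genes were matched by symbol, and Lor was matched to Loricrin in the annotation. The genes and all lists were chosen with earlier results of these data known.

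Genes were kept by filterByExpr at a minimum count of 10 and compared by the quasi-likelihood test of edgeR 4.0.16 (R 4.3.3) with TMM factors over all 8 libraries, without covariates, and p-values were adjusted over all 14864 genes (Benjamini-Hochberg, threshold 0.05). SE is the size of the log2 fold change over the square root of F. CPM use the sums over kept genes times the TMM factor. The study's methods name the exact test of edgeR, which was run as an alternative, as were DESeq2 1.42.0, limma 3.58.1 voom with quality weights, other normalizations and filters, marker covariates, the replicate number as a block and leaving out each library. The fits were tested on simulated data. No pair of replicates agreed within sampling noise, with a chi-square per degree of freedom of at least 13.6 over genes with at least 20 counts. Values in every library were given for the 4 most abundant genes of each family, for pairs sharing a name stem, and for any gene with an unadjusted p under 0.05 or groups that did not overlap. Flg, Rptn and S100a6 were added after their values were seen. Positions, exon lengths and sequences came from GENCODE release M39 on GRCm39, the build of the files. Total counts were 13479069 to 17090152 per library.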

Additional observations from a re-analysis of the deposited data

Results flagged for a closer look

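In 6 of 70 groups examined (chance flags about 1 in 20 groups, or 3.5), 1 library lay far from the other 3. Sprr1a and Sprr1b stood out in WT library 2, at 21.0 CPM against at most 5.19 and at 8.105 CPM against at most 1.34 in the other WT libraries. S100a8 stood out in MGL KO library 4, at 3.48 CPM against at most 0.796, and in WT library 1, at 1.95 CPM against at most 0.855. S100a1 was at 110.6 CPM in WT library 3 against at most 71.1, and most of its exon bases lie under exons of S100a13 on the opposite strand. Lce1m was at 5.74 CPM in WT library 4 against at most 2.29.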

How the results depend on the processing

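Under every alternative run, 0 of the envelope genes were called. Calls over all tested genes were 7, and they numbered 65 by the exact test of edgeR after the filter and 42 by the same test without it, 137 by DESeq2, 25 by limma-voom, 2 without a filter, 14, 24 and 3 with the basal squamous, skeletal muscle and Y-linked covariates, and 2 to 5 when a library was left out. Replicate numbers gave 2 calls as a block, and same-numbered libraries did not deviate together (correlations -0.14, -0.28, -0.14 and 0.08), so they share only a number. The median log2 fold change of the envelope genes was -0.015 with at least 10 counts in every library, where only 23 of the genes were tested, and it lay between -0.68 and -0.10 when a library was left out. With the Y-linked covariate it was -0.16, and that of the other precursors and plakins was -0.12. The Y-linked markers summed to between 186 and 224 CPM in every library, a 1.20-fold range, so this covariate holds no difference of sex. Of the 29 genes followed through the alternatives, 15 kept their direction wherever they were tested, 9 of them in every alternative. Leaving out 1 library moved the estimate of 27 of the 29 by over 1.5 times, all but S100a10 and Sprr2a2. Directions turned for Sprr3 (0.24 limma-voom, 0.33 block, 0.15 basal squamous, 0.73 Y-linked, 0.52 keratin), S100a8 (-0.43 limma-voom, -0.33 block, -0.58 skeletal muscle), Cnfn (0.45 Y-linked, 0.053 keratin), Crct1 (0.070 Y-linked) and Tgm2 (0.016 limma-voom). Leaving out a library in turn gave log2 fold changes of Cnfn -0.77 to 0.62, Crct1 -1.08 to 0.21, Evpl -0.42 to 0.0003, Lor -1.001 to 0.11, S100a1 -0.089 to 0.44, S100a14 -0.14 to 0.39, S100a8 -1.10 to 0.71, Sprr1a -0.81 to 1.39, Sprr1b -0.48 to 2.03, Sprr2a1 -0.17 to 0.58, Sprr3 -0.99 to 1.09, Tgm1 -0.079 to 0.67, Tgm2 -0.082 to 0.028 and Tgm3 -0.14 to 0.53. The cause was not tested. Ratios of LCE genes rest on few counts in MGL KO library 2.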

Other observations

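Krt6a, a keratin that squamous cells express in wounds, was singled out after its values were seen and did not pass adjustment. It had 13.3, 2.98, 8.39 and 9.22 CPM in MGL KO and 3.35, 3.03, 0.986 and 2.93 CPM in WT, a log2 fold change of 1.72 (SE 0.49, adjusted p = 0.478, edgeR). MGL KO library 2 overlapped the WT range, and the other 3 MGL KO libraries lay above it. S100b, an S100 gene known from glia and outside the families described, was at 9.98 ± 2.73 CPM in MGL KO and 7.41 ± 1.35 CPM in WT (SD, n = 4 each). It did not follow the 3 Schwann cell and glia markers. S100b was highest in MGL KO library 2, at 12.9 CPM, where these markers summed to 73.6 CPM, in a range of 62.1 to 181 CPM.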
